A study of Mus musculus with 12 samples.

Results

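Megakaryocytes are the bone marrow cells that shed platelets. The 34 genes described here encode the proteins that define these cells and their platelets: the alpha-granule chemokines, the fibrinogen receptor, the von Willebrand factor receptor, the thrombin, ADP and thromboxane receptors, and the enzymes and adaptors behind them. They were chosen by name, and each was represented by the probe set with that single gene symbol and the highest mean over all 12 arrays. Of the 34 genes, 30 had such a probe set among 18193 named genes, while Gp1ba, Ptgs1, Serpine2 and Bin2 were not analysed here. A filter on low values (a mean over all arrays above 5.10 on the log2 scale, the 40th percentile of probe-set means) kept 26 of them among 12918 genes. The 4 below it were Gp6, Clec1b, Tubb1 and P2ry1, and a filter on the mean of all arrays can keep a gene because 1 group is high.

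All 3 groups were normal mouse bone marrow cells that lacked lineage markers and Flt3 and carried c-Kit and Sca-1 on their surface (KSLF in the source names and KLSF in the titles), a population rich in stem and multipotent progenitor cells. They were grown in 10% serum with SCF at 50 ng/ml and IL-6 at 5 ng/ml for 24 h, exposed to retrovirus for 4 h and kept for another 20 h. GFP-positive cells were then sorted and their RNA was measured on Affymetrix arrays after a 2-step amplification. The 5 MIB control arrays (replicates 3 to 7) are of cells given empty vector. The 4 INV16 arrays (replicates 1 to 4) are of cells given INV16, the fusion of CBFB and MYH11 made by the inversion of chromosome 16 in acute myeloid leukaemia. The 3 ACD mutant arrays (replicates 1 to 3) are of cells given INV16 without its assembly competent domain, a form labelled as not leukaemogenic. Each replicate was a separate sort and transduction per the design text. The constructs were expressed from a retrovirus and not from the endogenous locus, and the cells were examined about 1 day after exposure to it.

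Megakaryocytes arise from multipotent progenitors under GATA1 with its partner FOG1 (Zfpm1), the ETS factor FLI1, and RUNX1 with its partner CBFB, the protein joined to myosin in INV16. NF-E2 (Nfe2) acts late, in the release of platelets. Some of the genes, among them Itga2b and Vwf, are also active in part of the stem cell compartment, so their RNA in KSLF cells does not by itself mark a megakaryocyte. Probe-set values are log2 units and were compared between arrays for 1 gene at a time, since probe sets differ in how strongly they bind.

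Promoters of 28 of the 34 genes were found in the RefSeq table for GRCm38.p6, each window holding 250 bases before and 50 after the start. They were searched on both strands for the letters GATAA of a GATA site, the letters AGGAAG of an ETS site and the letters TGTGGT of a RUNX site. GATAA was in 12 of the 28 windows (42.9%) and in 28.4% of the windows of all 27025 genes. AGGAAG was in 15 (53.6%) and in 38.4% of all, and TGTGGT was in 3 (10.7%: Gp9, F2r and Fermt3) and in 18.9% of all. Matches to different motifs can share bases at their ends, and a match here is a stretch of letters and not a measured binding site. The 4 windows printed first belong to genes with high values on the ACD mutant arrays and on MIB control replicate 7, followed by those of F13a1 and Cd9, which differed between INV16 and MIB control. Capitals mark matches on either strand.

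Pf4: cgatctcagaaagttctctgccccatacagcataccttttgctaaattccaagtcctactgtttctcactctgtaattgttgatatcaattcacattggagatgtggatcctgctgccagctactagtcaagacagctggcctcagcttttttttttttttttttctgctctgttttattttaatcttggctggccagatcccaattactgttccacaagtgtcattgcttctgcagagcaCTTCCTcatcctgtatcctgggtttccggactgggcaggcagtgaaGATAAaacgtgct
Itga2b: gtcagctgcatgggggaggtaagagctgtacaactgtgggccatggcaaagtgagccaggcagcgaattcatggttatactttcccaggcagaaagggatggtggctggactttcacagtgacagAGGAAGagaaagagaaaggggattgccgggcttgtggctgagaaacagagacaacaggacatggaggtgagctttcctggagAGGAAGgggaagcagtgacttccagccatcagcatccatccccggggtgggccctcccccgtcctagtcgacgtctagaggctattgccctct
Gp5: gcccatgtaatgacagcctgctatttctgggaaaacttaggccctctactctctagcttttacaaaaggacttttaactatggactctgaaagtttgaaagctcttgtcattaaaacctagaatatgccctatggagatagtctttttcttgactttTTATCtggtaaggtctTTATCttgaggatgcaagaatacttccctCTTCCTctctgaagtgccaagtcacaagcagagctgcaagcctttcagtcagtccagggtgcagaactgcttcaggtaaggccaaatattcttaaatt
Gp9: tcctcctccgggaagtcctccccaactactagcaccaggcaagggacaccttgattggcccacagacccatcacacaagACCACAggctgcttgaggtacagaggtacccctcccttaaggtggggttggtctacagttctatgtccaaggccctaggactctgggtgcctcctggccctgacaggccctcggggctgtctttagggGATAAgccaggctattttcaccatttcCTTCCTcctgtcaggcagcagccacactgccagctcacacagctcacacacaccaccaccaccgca
F13a1: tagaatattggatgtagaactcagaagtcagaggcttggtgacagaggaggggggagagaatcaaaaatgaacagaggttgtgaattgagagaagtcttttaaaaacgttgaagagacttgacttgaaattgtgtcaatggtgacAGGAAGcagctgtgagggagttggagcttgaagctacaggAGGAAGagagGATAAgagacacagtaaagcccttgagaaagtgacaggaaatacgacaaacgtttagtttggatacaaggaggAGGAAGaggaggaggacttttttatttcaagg
Cd9: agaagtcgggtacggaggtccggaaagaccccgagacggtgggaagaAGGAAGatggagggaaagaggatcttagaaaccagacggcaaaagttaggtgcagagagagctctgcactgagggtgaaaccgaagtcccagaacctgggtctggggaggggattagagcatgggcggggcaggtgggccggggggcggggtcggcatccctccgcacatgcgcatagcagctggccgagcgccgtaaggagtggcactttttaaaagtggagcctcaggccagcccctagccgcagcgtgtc

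They lie at chr5:90772185-90772484 on the plus strand (Pf4), chr11:102469834-102470133 on the minus strand (Itga2b), chr16:30310732-30311031 on the minus strand (Gp5) and chr6:87777820-87778119 on the plus strand (Gp9). The F13a1 window is at chr13:37050195-37050494 on the minus strand, the first of 2 starts listed for this gene, and the Cd9 window is at chr6:125494711-125495010 on the minus strand. Gp9 holds all 3 motifs, Pf4, Gp5 and F13a1 hold those of GATA and ETS, and Itga2b and Cd9 hold the ETS letters alone. The GATA letters of Pf4 lie after the start. Neighbouring Ppbp, at chr5:90768268-90768567 on the plus strand, holds none of the 3 motifs.

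Some arrays stood apart before any gene of interest was considered. INV16 replicate 4 correlated with the other 11 arrays at 0.895 to 0.917 over all probe sets, against 0.985 to 0.996 among the 11, and was kept out of the tests. The hybridisation spike-ins split the arrays: BioC minus BioB was 1.07 to 1.21 on MIB control 3 to 5 and INV16 1 to 3, and -0.11 to 0.07 on MIB control 6 and 7, the ACD mutant arrays and INV16 4. The labels give no run or date. All 3 ACD mutant arrays thus share their spike-in level with 2 of the 5 controls, and INV16 replicates 1 to 3 with the other 3. The Gapdh 3′ minus 5′ difference, a measure of RNA integrity and amplification, was 3.64 on INV16 4 and 3.17 on ACD mutant 1, and 1.10 to 1.98 on the others. It followed the spike-in split without overlap: 1.10 to 1.53 on MIB control 3 to 5 and INV16 1 to 3. On MIB control 6 and 7 and the ACD mutant arrays it was 1.63 to 3.17. Kit, a marker of the sort, measured 10.26 to 11.43 on the 11 arrays and Cd34 11.15 to 12.35, while Flt3, whose protein the sort excluded, still measured 8.03 to 9.76. Cbfb measured 12.12 to 12.71 and mouse Myh11 lay below the filter, so the array gave no reading of the transduced fusion.

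The 26 genes together were highest on MIB control replicate 7 and on the ACD mutant arrays. Their mean level was 7.77 to 8.14 on MIB control 3 to 6, 8.79 on MIB control 7, 7.90 to 7.93 on INV16 1 to 3, 8.004 on INV16 4 and 8.46 to 8.72 on the ACD mutant arrays. In bulk RNA, fewer megakaryocyte-primed cells and less of these RNAs in each cell cannot be told apart. In the tests (limma on 11 arrays, adjusted over 12918 genes, called at an adjusted p under 0.05), INV16 against MIB control called 3 of the 26, with 1.70% of all genes called. ACD mutant against MIB control called 0 of the 26, with 1.70% of all genes called and 11 of the 26 at an unadjusted p under 0.05. INV16 against ACD mutant called 1 of the 26, with 2.07% of all genes called. With INV16 4 in the fit, 0 of the 26 were called in each comparison (4, 2 and 7 at an unadjusted p under 0.05, in the same order), while 0.155%, 0.00% and 0.0387% of all genes were called, so that these counts are near the background.

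**Figure D1:**
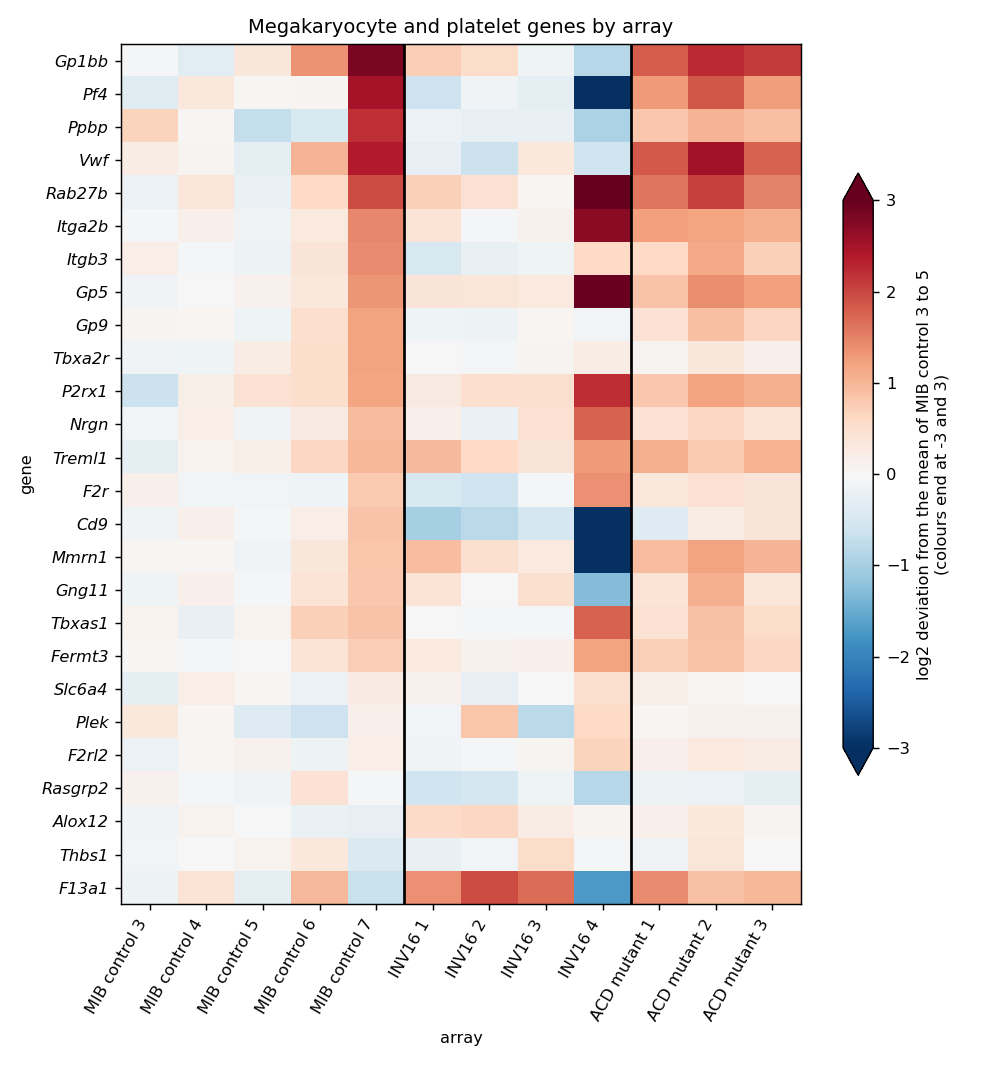
Heat map of the 26 genes past the filter (rows) on the 12 arrays (columns), coloured by the log2 deviation from the mean of MIB control 3 to 5; colours end at -3 and 3, and black lines part the groups. The columns of MIB control 7 and of the ACD mutant arrays are mostly red, and INV16 4 holds both the highest and the lowest values.

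Directions among the genes were one-sided for the ACD mutant. Its mean was above that of MIB control for 23 of 26 genes (51.4% of all genes), with a median difference of 0.41 against 0.01 over all genes. Without the filter it was above for 27 of 30 (median 0.35) and for 49.8% of all genes. INV16 lay below ACD mutant for 24 of 26 genes (54.3% of all genes), with a median of -0.58 against -0.02 over all genes. Against MIB control, INV16 was above for 9 of 26 genes (43.7% of all genes), with a median of -0.11 against -0.03. Both comparisons of the ACD mutant share its arrays, and both comparisons with MIB control share the controls.

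**Figure D2:**
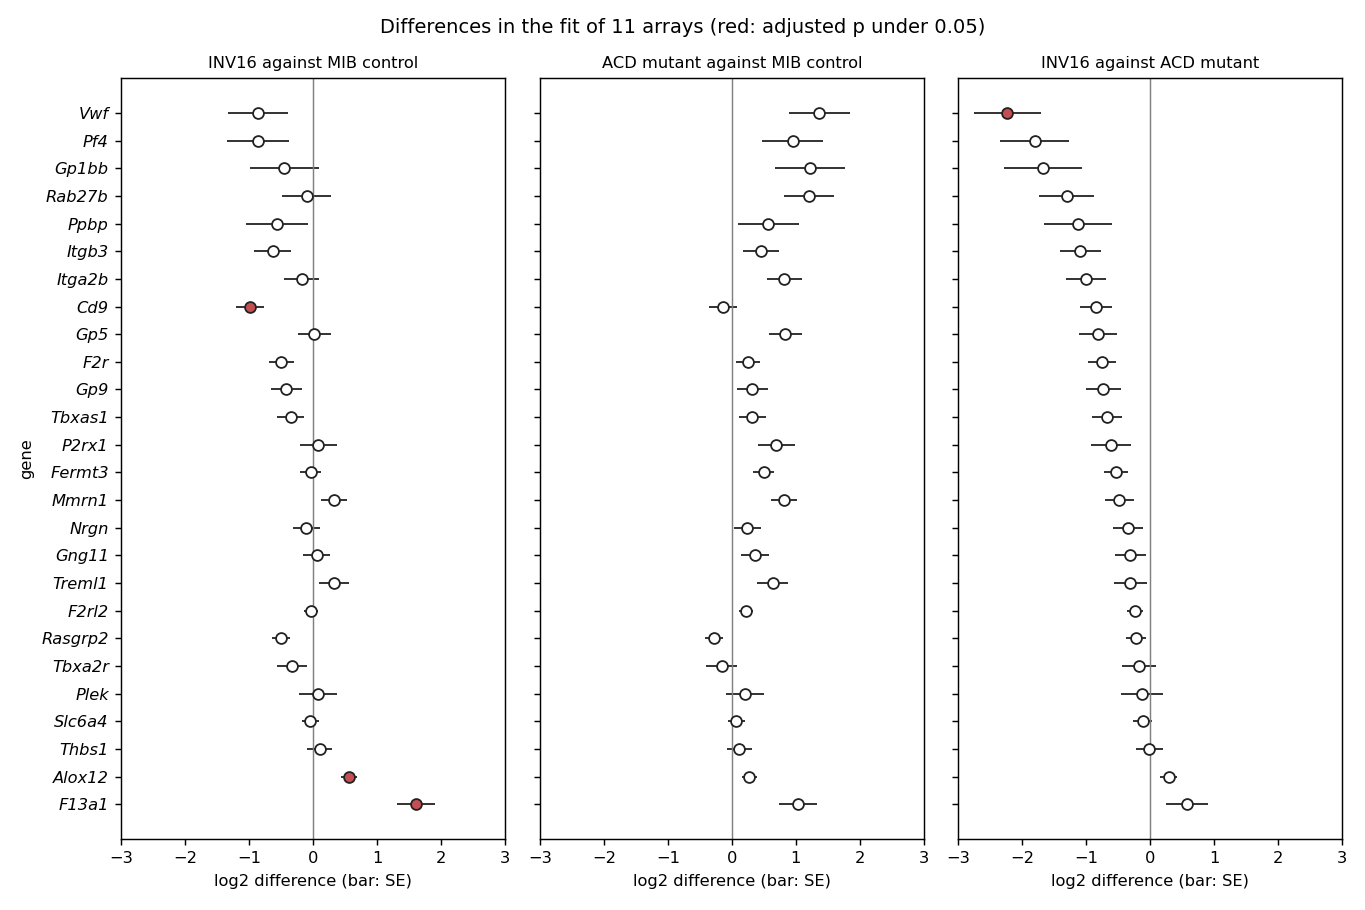
Log2 differences of the 26 genes in the 3 comparisons, with standard errors as bars; red points have a limma adjusted p under 0.05. F13a1, Alox12 and Cd9 are red in INV16 against MIB control and Vwf in INV16 against ACD mutant, while most other genes of the right panel lie below 0 without passing the test.

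The alpha-granule chemokines were among the genes that varied most. Pf4, platelet factor 4, is the chemokine by which megakaryocytes are often marked. It measured 9.25, 9.93, 9.63, 9.68 and 12.10 on MIB control 3 to 7, 8.98, 9.49 and 9.31 on INV16 1 to 3, 6.22 on INV16 4, and 10.88, 11.47 and 10.86 on the ACD mutant arrays. Every ACD mutant array was above every INV16 array and above MIB control 3 to 6, but below MIB control 7. The difference of INV16 from ACD mutant was -1.81 (SE 0.54, limma adjusted p = 0.0936), that of ACD mutant from MIB control 0.95 (SE 0.48, limma adjusted p = 0.305).

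Ppbp encodes pro-platelet basic protein, the precursor of several platelet chemokines. It measured 6.40, 5.78, 5.01, 5.27 and 7.92 on MIB control 3 to 7, 5.55, 5.48 and 5.50 on INV16 1 to 3, 4.77 on INV16 4, and 6.54, 6.75 and 6.64 on the ACD mutant arrays. MIB control 7 was again the highest array, INV16 1 to 3 lay within the range of the controls, and INV16 4 lay below it. INV16 differed from ACD mutant by -1.14 (SE 0.53, limma adjusted p = 0.269).

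Platelets bind fibrinogen through the integrin of Itga2b (CD41) and Itgb3 (CD61). Itga2b measured 9.35, 9.55, 9.29, 9.69 and 10.83 on MIB control 3 to 7, 9.80, 9.35 and 9.52 on INV16 1 to 3, 12.10 on INV16 4, and 10.62, 10.58 and 10.49 on the ACD mutant arrays. Itgb3 measured 9.09, 8.83, 8.72, 9.27 and 10.30 on MIB control 3 to 7, 8.40, 8.66 and 8.75 on INV16 1 to 3, 9.48 on INV16 4, and 9.48, 10.01 and 9.60 on the ACD mutant arrays. For both subunits the ACD mutant arrays lay above INV16 1 to 3 and MIB control 3 to 6 and below MIB control 7. INV16 differed from ACD mutant by -1.01 (SE 0.31, limma adjusted p = 0.099) for Itga2b and by -1.09 (SE 0.32, limma adjusted p = 0.086) for Itgb3. A second, dimmer Itgb3 probe set gave -0.23. Against MIB control, the ACD mutant difference was 0.82 (SE 0.28, limma adjusted p = 0.122) for Itga2b and 0.46 (SE 0.28, limma adjusted p = 0.417) for Itgb3.

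The GPIb-IX-V complex, the receptor for von Willebrand factor, was read through Gp1bb, Gp5 and Gp9, while Gp1ba, which carries the binding site, was not analysed here. Gp1bb measured 5.46, 5.17, 5.83, 6.84 and 8.31 on MIB control 3 to 7, 6.23, 6.03 and 5.35 on INV16 1 to 3, 4.64 on INV16 4, and 7.31, 7.73 and 7.59 on the ACD mutant arrays. MIB control 6 and 7, which share the spike-in level of the ACD mutant arrays, were the highest controls. ACD mutant differed from MIB control by 1.22 (SE 0.54, limma adjusted p = 0.234), and by -0.03 (SE 0.36) within the arrays of that spike-in level. INV16 differed from ACD mutant by -1.68 (SE 0.61, limma adjusted p = 0.155), and by 0.41 with the spike-in split as a block. A second Gp1bb probe set gave 0.06 and -0.02 for these differences.

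Gp5 measured 6.59, 6.68, 6.82, 7.02 and 8.03 on MIB control 3 to 7, 7.08, 7.07 and 6.99 on INV16 1 to 3, 9.66 on INV16 4, and 7.56, 8.09 and 7.94 on the ACD mutant arrays. Gp9, the small subunit needed to bring the complex to the surface, measured 7.18, 7.14, 6.95, 7.60 and 8.30 on MIB control 3 to 7, 6.97, 6.94 and 7.14 on INV16 1 to 3, 7.01 on INV16 4, and 7.52, 7.995 and 7.74 on the ACD mutant arrays. In both genes the ACD mutant arrays were above INV16 1 to 3, and for Gp9 1 of them lay below MIB control 6. ACD mutant differed from MIB control by 0.84 (SE 0.26, limma adjusted p = 0.104) for Gp5 and by 0.32 (SE 0.24, limma adjusted p = 0.533) for Gp9. Gp6, the collagen receptor, stayed between 4.39 and 5.03 on all 12 arrays, below the filter, so it had no test.

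Vwf, the adhesive protein that GPIb binds and that alpha-granules store, gave the only call between INV16 and ACD mutant among the 26. It measured 5.58, 5.44, 5.08, 6.37 and 7.74 on MIB control 3 to 7, 5.13, 4.73 and 5.68 on INV16 1 to 3, 4.78 on INV16 4, and 7.21, 7.89 and 7.13 on the ACD mutant arrays. It was lower in INV16 by 2.23 log2 units (log2 difference -2.23, SE 0.53, limma adjusted p = 0.0485), a 4.70-fold difference, with no overlap between the groups. All ACD mutant arrays were likewise above INV16 1 to 3 for 15 of the 26 genes and for 19.2% of all genes. The call was lost when MIB control 6 or any 1 of INV16 1 to 3 or of the ACD mutant arrays was left out (limma adjusted p 0.0539 to 0.201) and with the spike-in split as a block (-0.54, limma adjusted p = 0.710). ACD mutant against MIB control gave 1.37 (SE 0.47, limma adjusted p = 0.131). Because Vwf is also an endothelial gene, the endothelial list was read beside it. The mean over 9 of its 10 genes was 5.58 to 5.94 on MIB control, 5.78 to 5.96 on INV16 1 to 3 and 5.74 to 5.91 on ACD mutant arrays. Of the 9, 0 were called in any comparison (1 to 3 at an unadjusted p under 0.05), where 1.70% to 2.07% of all genes were called. Cdh5, which defines endothelium, was below the filter at 4.33 to 4.75. The part of endothelial cells in the Vwf values was not tested.

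**Figure D3:**
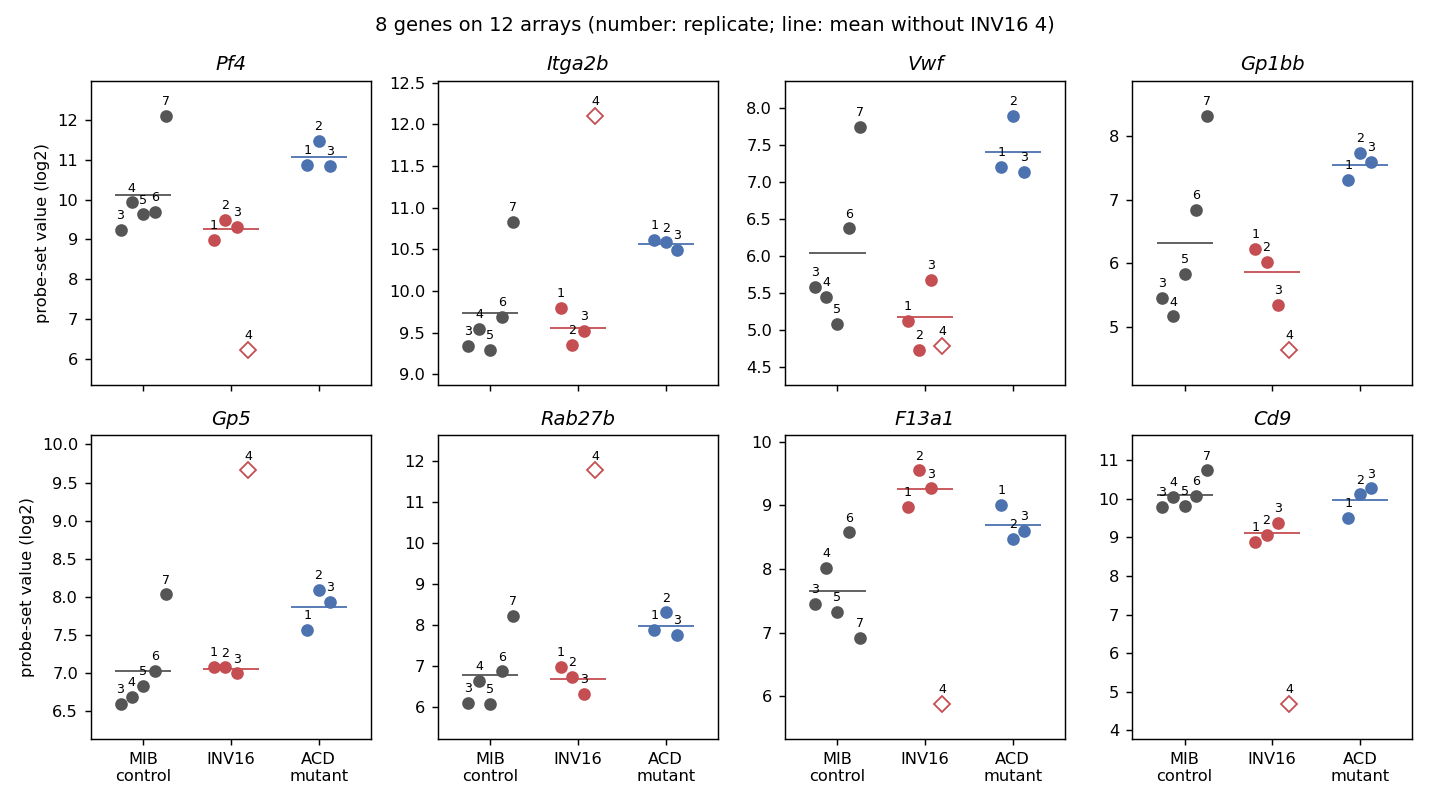
Probe-set values (log2) of 8 genes on the 12 arrays by group; each point is 1 array with its replicate number, the open diamond is INV16 4, and lines are group means without it. MIB control 7 sits with or above the ACD mutant arrays for Pf4, Itga2b, Vwf, Gp1bb, Gp5 and Rab27b but is the lowest control for F13a1.

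Rab27b, a small GTPase that docks secretory granules, measured 6.11, 6.64, 6.07, 6.87 and 8.22 on MIB control 3 to 7, 6.98, 6.74 and 6.33 on INV16 1 to 3, 11.77 on INV16 4, and 7.88, 8.31 and 7.77 on the ACD mutant arrays. ACD mutant differed from MIB control by 1.21 (SE 0.38, limma adjusted p = 0.109) and INV16 from ACD mutant by -1.31 (SE 0.43, limma adjusted p = 0.121). Its other 3 probe sets gave ACD mutant differences of 0.77, 0.99 and 0.21. Mmrn1, multimerin 1, which binds factor V in the alpha-granule, was the 1 gene of the 26 whose ACD mutant arrays (9.11, 9.39 and 9.20) all exceeded all controls (8.09 to 9.02), a separation that 6.93% of all genes showed. Its difference was 0.81 (SE 0.20, limma adjusted p = 0.0568). Thbs1, thrombospondin 1, was near the filter in every group, at 5.26 ± 0.27 (SD, n = 5) in MIB control, 5.36 ± 0.42 (SD, n = 3) in INV16 1 to 3 and 5.37 ± 0.24 (SD, n = 3) in ACD mutant.

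Of the receptors for thrombin, ATP and thromboxane, Treml1 and the serotonin transporter, none was called in any of the 3 comparisons. F2r, the thrombin receptor PAR1, stood at 12.42 ± 0.38 (SD, n = 5) in MIB control, 11.92 ± 0.29 (SD, n = 3) in INV16 1 to 3 and 12.68 ± 0.08 (SD, n = 3) in ACD mutant. INV16 differed from ACD mutant by -0.76 (SE 0.22, limma adjusted p = 0.0854), and by -1.26 on a second F2r probe set. P2rx1, an ATP-gated channel, stood at 7.51 ± 0.66 (SD, n = 5), 7.59 ± 0.13 (SD, n = 3) and 8.20 ± 0.20 (SD, n = 3) in the same order of groups. Treml1, a transcript of platelet granule membranes, stood at 7.33 ± 0.50 (SD, n = 5), 7.65 ± 0.29 (SD, n = 3) and 7.96 ± 0.16 (SD, n = 3). Tbxa2r, the thromboxane receptor, stood at 7.86 ± 0.55 (SD, n = 5) in MIB control and 7.70 ± 0.14 (SD, n = 3) in ACD mutant. MIB control 7 (8.72) raised that control mean, and the mean of MIB control 3 to 6 was 7.64. F2rl2 (PAR3) and the serotonin transporter Slc6a4 differed by at most 0.25 in any comparison. Clec1b (CLEC-2) and the ADP receptor P2ry1 were below the filter, with group means of 4.15 to 5.05 and 4.79 to 5.13.

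Of the intracellular proteins, Fermt3 (kindlin-3), which switches on integrins, was bright everywhere, at 12.50 ± 0.33 (SD, n = 5) in MIB control, 12.46 ± 0.08 (SD, n = 3) in INV16 1 to 3 and 12.996 ± 0.126 (SD, n = 3) in ACD mutant. ACD mutant differed from MIB control by 0.50 (SE 0.16, limma adjusted p = 0.113), and 3 other Fermt3 probe sets gave 0.63, 0.50 and -0.04. Rasgrp2, the calcium-sensing activator of RAP1, was lower in INV16 by 0.50 log2 units without passing the test (log2 difference -0.50, SE 0.14, limma adjusted p = 0.104), and its 3 other probe sets gave 0.05, -0.32 and 0.13. Pleckstrin (Plek), the G protein subunit Gng11 and neurogranin (Nrgn) differed by at most 0.36 in any comparison. Tubb1, the tubulin of the platelet marginal band, was below the filter with group means of 4.59 to 4.76.

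INV16 against MIB control gave calls for F13a1, Alox12 and Cd9. F13a1, the A subunit of coagulation factor XIII, which is also made by monocytes and macrophages, measured 7.46, 8.01, 7.32, 8.57 and 6.92 on MIB control 3 to 7, 8.98, 9.55 and 9.27 on INV16 1 to 3, 5.88 on INV16 4, and 9.01, 8.47 and 8.60 on the ACD mutant arrays. MIB control 7 was the lowest control here, and INV16 1 to 3 lay above all 5. The difference was 1.61 (SE 0.30, limma adjusted p = 0.0169), a 3.05-fold rise. Within the arrays sharing the spike-in level it was 1.67 (SE 0.21, limma adjusted p = 0.0237), where 0.232% of all genes were called. The call was lost without INV16 1 (1.75, limma adjusted p = 0.0688) or INV16 2 (1.47, limma adjusted p = 0.0855), and the value fell to 0.76 (limma adjusted p = 0.482) with INV16 4, where 0.155% of all genes were called. The ACD mutant difference from MIB control was 1.03 (SE 0.30, limma adjusted p = 0.0831), and INV16 differed from ACD mutant by 0.57 (SE 0.33, limma adjusted p = 0.371). The monocyte and macrophage list, read beside F13a1, had 0 of 8 genes called in each comparison (at most 2 at an unadjusted p under 0.05), where 1.70% to 2.07% of all genes were called. Its mean was 7.47 to 8.66 on MIB control, 7.84 to 8.42 on INV16 1 to 3 and 8.45 to 8.64 on ACD mutant arrays. The part of this list in F13a1 was not tested.

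Alox12, the platelet 12-lipoxygenase, measured 4.92, 5.15, 5.02, 4.84 and 4.79 on MIB control 3 to 7, 5.61, 5.65 and 5.25 on INV16 1 to 3, 5.11 on INV16 4, and 5.19, 5.34 and 5.12 on the ACD mutant arrays. INV16 1 to 3 lay above all controls, and INV16 4 did not. It rose by 0.56 in INV16 (SE 0.12, limma adjusted p = 0.0355) and the call was lost under 14 of 21 alternatives, among them leaving out any 1 of MIB control 5 to 7, INV16 1 or 2, or ACD mutant 1 or 3 (limma adjusted p 0.0551 to 0.206), and within the arrays sharing the spike-in level (0.48, limma adjusted p = 0.217). It was the 1 gene of the 26 that passed the filter of 5.10 only through 1 group: its mean was 5.17 over all arrays and 5.05 without the INV16 arrays. Fitted without the filter, over 18193 genes, the same difference had a limma adjusted p of 0.0361. Its second probe set was below the filter.

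Cd9, a tetraspanin of megakaryocytes, platelets and stem cells, measured 9.79, 10.05, 9.82, 10.08 and 10.74 on MIB control 3 to 7, 8.89, 9.08 and 9.37 on INV16 1 to 3, 4.67 on INV16 4, and 9.51, 10.12 and 10.27 on the ACD mutant arrays. All INV16 arrays lay below all controls and below the ACD mutant arrays. Cd9 fell by 0.98 log2 units in INV16 (SE 0.22, limma adjusted p = 0.0418), a 1.98-fold difference. The call was lost under 14 of 21 alternatives, among them leaving out any 1 of MIB control 5 or 6, INV16 1 or 2, or ACD mutant 2 or 3 (limma adjusted p 0.0512 to 0.225), and within the arrays sharing the spike-in level (-0.78, limma adjusted p = 0.0824). Tbxas1, thromboxane synthase, the other enzyme read, measured 8.56 ± 0.45 (SD, n = 5) in MIB control, 8.21 ± 0.04 (SD, n = 3) in INV16 1 to 3 and 8.88 ± 0.22 (SD, n = 3) in ACD mutant.

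The control arrays differed among themselves. MIB control 7 was the highest of the 5 controls for 21 of the 26 genes, a position it held for 23.2% of all genes. It exceeded the mean of MIB control 3 to 6 by a median of 0.83, by 2.48 for both Pf4 and Gp1bb, and by 2.31 for Ppbp and 2.13 for Vwf, while for F13a1 it was lower (-0.92). MIB control 6 was the highest of replicates 3 to 6 for 19 of the 26, against 32.5% of all genes, and exceeded the mean of replicates 3 to 5 by a median of 0.37, led by Gp1bb (1.35) and Vwf (1.01). Read singly, the ACD mutant mean was above MIB control 6 for 21 of the 26 genes, where 49.4% of all genes were, with a median difference of 0.38. It was above MIB control 7 for 5 of the 26 (Thbs1, Mmrn1, F2rl2, Alox12 and F13a1), where 49.4% of all genes were, with a median of -0.21.

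**Figure D4:**
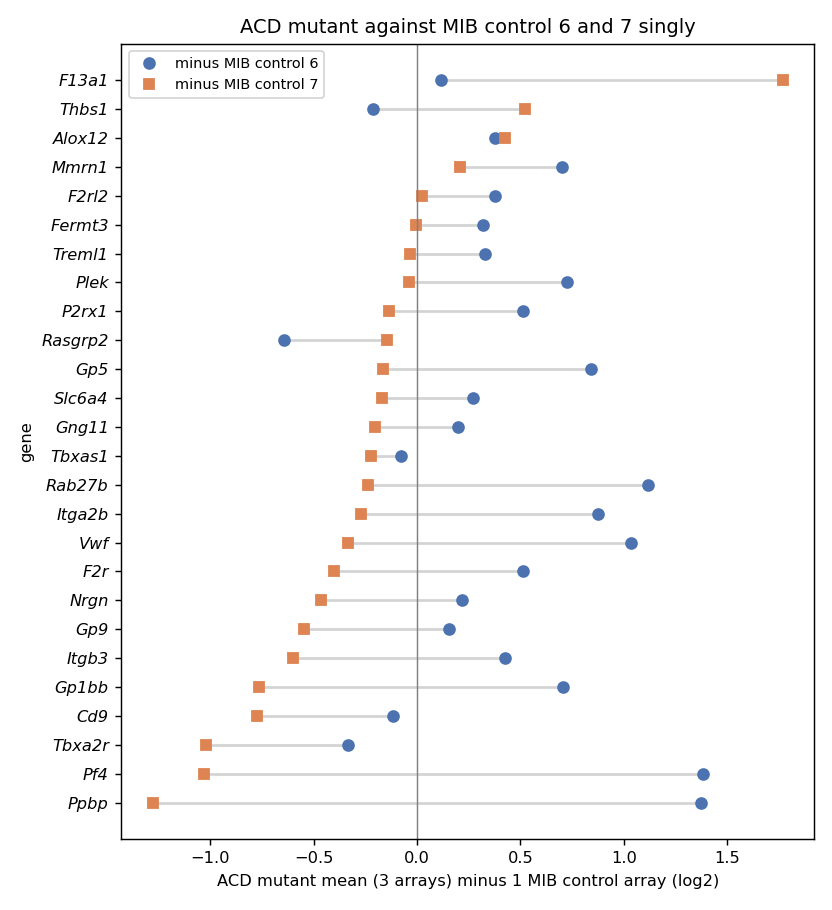
For each of the 26 genes (rows), the ACD mutant mean of 3 arrays minus MIB control 6 (circles) and minus MIB control 7 (squares), in log2 units. Circles lie mostly right of 0 (21 of 26) and squares mostly left of it (21 of 26), and F13a1 lies 1.77 above MIB control 7.

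Without MIB control 7 the ACD mutant comparisons changed. ACD mutant against MIB control then called 12 of the 26, all higher (4.58% of all genes called): Pf4, Ppbp, Itga2b, Itgb3, Gp1bb, Gp5, Vwf, Rab27b, Mmrn1, Treml1, P2rx1 and Fermt3. All 12 are among the 21 genes for which MIB control 7 was the highest control. Leaving that array out raises their differences by construction, so the count is no separate support for them. MIB control 6 is then the only control at the spike-in level of the ACD mutant arrays. Pf4 then differed by 1.45 (SE 0.19, limma adjusted p = 0.00435), Itga2b by 1.10 (SE 0.13, limma adjusted p = 0.00399), Gp5 by 1.09 (SE 0.14, limma adjusted p = 0.00399) and Vwf by 1.79 (SE 0.29, limma adjusted p = 0.0112). INV16 against ACD mutant called 12 of the 26 as lower (3.91% of all genes called), although the means it compares are the same: the spread is estimated over all groups, and the SE of Pf4 fell from 0.54 to 0.20. Fitted on the INV16 and ACD mutant arrays alone it called 14 of the 26 (6.50% of all genes called). For 15 of the 26 genes all ACD mutant arrays were above MIB control 3 to 6 (10.6% of all genes), and for 15 they were above INV16 1 to 3 (19.2% of all genes).

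Within arrays that share a spike-in level the differences of the list were smaller. ACD mutant against MIB control 6 and 7 called 0 of the 26 (4 at an unadjusted p under 0.05), where 0.325% of all genes were called. The median was 0.15, with 17 of 26 above 0 (49.6% of all genes). Pf4 differed by 0.18 (SE 0.58), Itga2b by 0.30 (SE 0.28) and Vwf by 0.35 (SE 0.38). With 2 controls these values are imprecise, and 1 of the 2 is MIB control 7. INV16 1 to 3 against MIB control 3 to 5 called F13a1 alone (0.232% of all genes called), with a median of 0.04 and 14 of 26 above 0 (46.7% of all genes). With the spike-in split as a block, INV16 against ACD mutant had a median of -0.01, with 13 of 26 below 0 (50.9% of all genes) and 0 called (1 at an unadjusted p under 0.05). That fit rests on the controls that bridge the levels and called 0 of all 12918 genes for this comparison (1492 at an unadjusted p under 0.05). Spike-in level, MIB control 7 and the ACD mutant group cannot be fully told apart in this design.

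On the 11 arrays without INV16 4, Gata1 and its partner Zfpm1 were highest on MIB control 7 and the ACD mutant arrays, as were the 26 genes together. On INV16 4 they parted: Gata1 was the highest of all 12 arrays, while Zfpm1 was at 7.46. Gata1 measured 7.68, 8.35, 8.29, 8.78 and 10.08 on MIB control 3 to 7, 8.60, 8.47 and 8.53 on INV16 1 to 3, 12.53 on INV16 4, and 10.12, 9.85 and 9.84 on the ACD mutant arrays. ACD mutant differed from MIB control by 1.30 (limma adjusted p = 0.0833) and by 1.66 without MIB control 7 (limma adjusted p = 0.00399), but by 0.51 within the arrays sharing the spike-in level (limma adjusted p = 0.413). Zfpm1 was lower in INV16 than in ACD mutant (-1.38, SE 0.32, limma adjusted p = 0.0433), a call lost with the spike-in split as a block (-0.31, limma adjusted p = 0.681). Nfe2 measured 10.66, 10.21, 10.26, 10.92 and 11.47 on MIB control 3 to 7, 9.02, 9.34 and 9.10 on INV16 1 to 3, 9.91 on INV16 4, and 10.78, 11.05 and 10.87 on the ACD mutant arrays. INV16 1 to 3 lay below every other array for Nfe2, by 1.74 log2 units against ACD mutant (log2 difference -1.74, SE 0.26, limma adjusted p = 0.00721), also lost with that block (-0.93, limma adjusted p = 0.264). Within the arrays sharing the spike-in level, Nfe2 in INV16 differed from MIB control by -1.22 (limma adjusted p = 0.0237). Fli1 and Runx1 were not called: INV16 1 to 3 stood at 9.45 ± 0.40 (SD, n = 3) and 9.73 ± 0.28 (SD, n = 3), MIB control at 9.37 ± 0.28 (SD, n = 5) and 9.43 ± 0.81 (SD, n = 5), and ACD mutant at 9.62 ± 0.14 (SD, n = 3) and 10.46 ± 0.21 (SD, n = 3). Of 18 regulators tested, 1 was called lower in INV16 against MIB control, 0 were called in ACD mutant against MIB control (7 at an unadjusted p under 0.05) and 2 were lower in INV16 against ACD mutant, with medians of -0.14, 0.24 and -0.48. The shares of all genes called in these comparisons were 1.70%, 1.70% and 2.07%.

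Other platelet surface genes outside the 34 were read beside them. Selp (P-selectin), of the alpha-granule membrane, rose in INV16 (0.95, SE 0.16, limma adjusted p = 0.0122) and in ACD mutant (1.14, SE 0.16, limma adjusted p = 0.015) against the same controls, with 9.29, 9.57, 9.61, 9.20 and 8.84 on MIB control 3 to 7, 10.10, 10.45 and 10.19 on INV16 1 to 3, 3.68 on INV16 4, and 10.49, 10.50 and 10.34 on the ACD mutant arrays. Unlike Pf4, it was lowest of the controls on MIB control 7. Within the arrays sharing the spike-in level it differed by 0.76 (limma adjusted p = 0.0794) in INV16 and by 1.43 (limma adjusted p = 0.025) in ACD mutant, and with INV16 4 the INV16 difference turned to -0.70 (limma adjusted p = 0.706). The prostacyclin receptor Ptgir (1.25, SE 0.20, limma adjusted p = 0.00953) and the adhesion molecule Esam (0.95, SE 0.22, limma adjusted p = 0.0477) rose in INV16 too. Neither kept its call within the spike-in level (limma adjusted p = 0.0653 for Ptgir). On INV16 4 Esam was at 6.61, below every control, and Ptgir at 9.51, above every control. Against MIB control, 3 of 14 surface genes were called in INV16 and 1 of 14 in ACD mutant, where 1.70% of all genes were called in both.

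Of 23 platelet signalling genes, 1 was called in ACD mutant against MIB control (Pik3cg, 0.79, limma adjusted p = 0.0412, and 0.71, limma adjusted p = 0.139, with the spike-in split as a block), 2 were lower in INV16 against ACD mutant and 0 were called in INV16 against MIB control (2 at an unadjusted p under 0.05). The 2 were the kinase Syk (-1.05, limma adjusted p = 0.0167) and Rasa3, a brake on RAP1 (-0.54, limma adjusted p = 0.0361). Neither was called with the spike-in split as a block, a fit that called 0 of all 12918 genes for INV16 against ACD mutant. Among 22 genes of granule biogenesis, Nbeal2, whose loss gives gray platelets, was lower in INV16 against MIB control (-0.77, limma adjusted p = 0.0368) and Ap3b1 was higher in ACD mutant (0.56, limma adjusted p = 0.036). Both calls were lost with the spike-in split as a block (Nbeal2 -0.57, limma adjusted p = 0.0796; Ap3b1 0.45, limma adjusted p = 0.120). Of 16 proplatelet cytoskeleton genes, the tubulin Tuba8 was lower in INV16 against both MIB control (-1.35, limma adjusted p = 0.0132) and ACD mutant (-1.34, limma adjusted p = 0.0242). Its call against ACD mutant was lost with the spike-in split as a block, and that against MIB control within the arrays sharing the spike-in level. None of 10 granule cargo genes was called in the limma fit, with 1 at an unadjusted p under 0.05 in each comparison. Beside the counts of these lists, 1.70% of all genes were called in either comparison with MIB control and 2.07% in INV16 against ACD mutant.

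Some mast cell and basophil genes were high on the same arrays as the megakaryocyte genes. Cpa3, mast cell carboxypeptidase, measured 9.60, 10.30, 9.75, 9.59 and 10.999 on MIB control 3 to 7, 10.06, 9.81 and 9.31 on INV16 1 to 3, 14.27 on INV16 4, and 11.38, 11.09 and 11.05 on the ACD mutant arrays. Ms4a2, the beta chain of the IgE receptor, measured 7.76 to 9.09 on MIB control 3 to 6, 10.34 on MIB control 7, 8.31 to 8.44 on INV16 1 to 3 and 10.11 to 10.61 on the ACD mutant arrays. Both were lower in INV16 than in ACD mutant (Cpa3 -1.45, limma adjusted p = 0.0379; Ms4a2 -2.01, limma adjusted p = 0.0418), and Hdc, which makes histamine, was higher in ACD mutant than in MIB control (1.56, limma adjusted p = 0.015). With the spike-in split as a block Cpa3 and Ms4a2 lost their calls, and Hdc differed by 1.25 without a call (limma adjusted p = 0.0695). Within the arrays sharing the spike-in level Hdc kept its call (limma adjusted p = 0.0337). Over 9 of the 12 genes of that list the mean was 6.74 to 7.49 on MIB control 3 to 6, 7.97 on MIB control 7, 7.05 to 7.13 on INV16 1 to 3 and 7.49 to 7.63 on the ACD mutant arrays. Some defining members stayed low there: on the 11 arrays Cma1 was 4.50 to 5.27 and Fcer1a 4.27 to 5.74, and Tpsab1 and Mcpt4 were below the filter. The basophil protease Mcpt8 was bright on the same arrays, at 9.39 to 10.24. Of the 9 genes, 5 were above MIB control in ACD mutant and 4 below. Those below included Mcpt8 (9.57 against 9.92), Fcer1a (4.36 against 5.07) and Gzmb (6.62 against 7.33). The part of these cells in the megakaryocyte values was not tested.

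Erythroid genes, the sister line, had 0 of 6 called in each comparison (1 to 3 at an unadjusted p under 0.05), with a mean of 8.09 to 8.54 on MIB control, 7.96 to 8.30 on INV16 1 to 3 and 8.29 to 8.41 on ACD mutant arrays, and Hba-a1 was below the filter. For this and the following lists, the shares of all genes called were 1.70% in either comparison with MIB control and 2.07% in INV16 against ACD mutant. Of 10 neutrophil genes S100a8 was lower in INV16 than in MIB control (-3.08, limma adjusted p = 0.0144) and Cxcr2 higher in ACD mutant (0.88, limma adjusted p = 0.0375), the latter without a call with the spike-in split as a block (0.82, limma adjusted p = 0.117). Of the 12 sorted progenitor genes Procr was higher in INV16 (1.48, limma adjusted p = 0.0252) and Slamf1 in ACD mutant (1.20, limma adjusted p = 0.0378), both against MIB control, and Slamf1 lost its call with that block (0.72, limma adjusted p = 0.153). Fibroblast and stroma genes had 1 of 5 called, Pdgfrb, lower in INV16 (-1.10, limma adjusted p = 0.0132), and 0 of 4 lymphocyte genes were called (at most 1 at an unadjusted p under 0.05). Of the called genes outside the 34 that differed from MIB control, those with a call also within the arrays sharing the spike-in level were Nfe2 and S100a8 in INV16 and Selp and Hdc in ACD mutant, and none of these lists held a call with INV16 4 in the fit. That fit called 0.155% and 0.00% of all genes in INV16 and ACD mutant against MIB control, and 0.0387% between INV16 and ACD mutant.

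INV16 replicate 4 had a profile of its own in these genes. It was above all 11 other arrays for 11 of the 26 genes (34.3% of all genes) and below all of them for 8 (38.8% of all genes). Against the mean of INV16 1 to 3, Rab27b was higher by 5.09, Gp5 by 2.61, Itga2b by 2.54, P2rx1 and Tbxas1 both by 1.80 and F2r by 1.74. Cd9 was lower (-4.44), as were Mmrn1 (-3.83), F13a1 (-3.39), Pf4 (-3.04), Gng11 (-1.61) and Gp1bb (-1.23). Itga2b and Rab27b thus stood highest, and Pf4, Mmrn1 and Cd9 lowest, of all 12 arrays, while Itgb3, the partner of Itga2b, lay within the range of the others. On the same array the mast cell and basophil list had a mean of 10.85, with Cpa3 at 14.27, Hdc at 13.95, Ms4a2 at 13.67, Fcer1a at 13.31 and Cma1 at 12.70, and Mcpt8, a basophil protease, was at 5.35 against 9.39 to 10.24 elsewhere. The filter used the mean of all 12 arrays. Cma1, Fcer1a and Il4 (10.09 here, 4.41 to 5.18 elsewhere) passed it only through INV16 4, so this list mean is high in part by construction. The erythroid list was also highest on INV16 4, with a mean of 9.21 against 7.96 to 8.54 elsewhere. Klf1 (10.72), Epor (9.20), Ermap (8.92) and Rhd (7.15) were the highest of all arrays, and Car2 (10.31) and Tfrc (8.95) the lowest. The sorted progenitor list had a mean of 7.62, against 9.95 to 10.68 elsewhere, and Cd34 was at 7.39. The part of these genes in the values of INV16 4 was not tested.

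**Figure D5:**
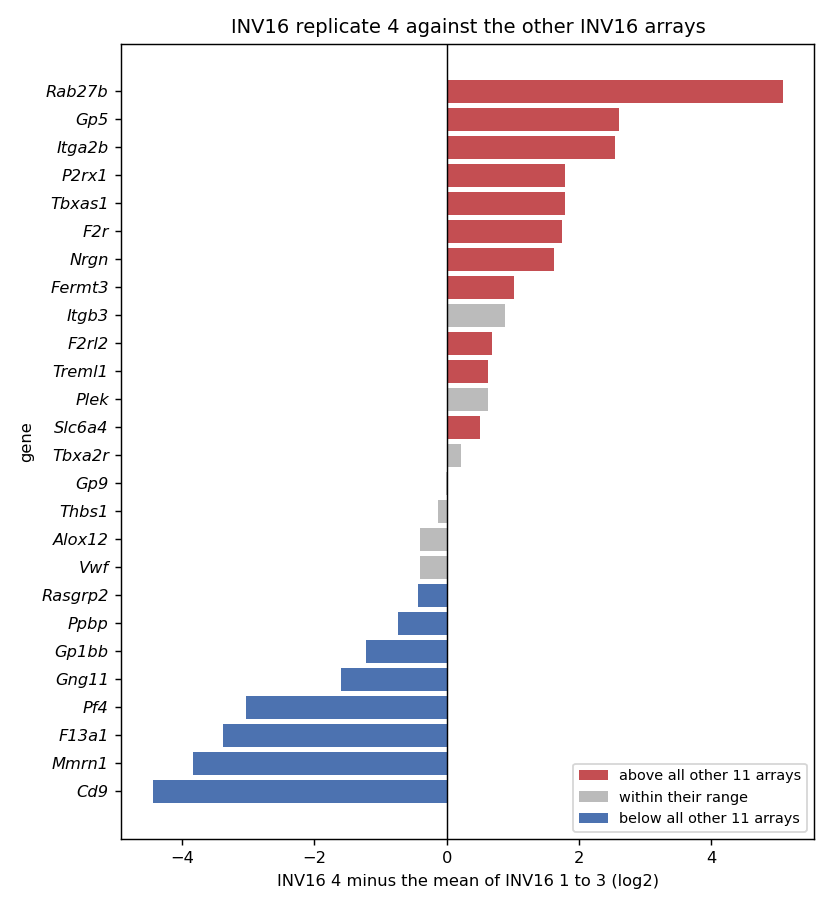
INV16 replicate 4 minus the mean of INV16 1 to 3 (log2, bars) for the 26 genes, coloured by whether the array lies above, within or below the range of the other 11. Bars run from -4.44 (Cd9) to 5.09 (Rab27b), with 11 genes above and 8 below all other arrays.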

How the data were processed

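RNA of 12 samples was measured, 1 Affymetrix array each. The deposited values are log2 probe-set values, 45101 per array, from 2.82 to 14.97; the log base was read from that range, and the background correction, normalisation and summarisation by the authors are not given in the sources used here. Medians of the arrays, 5.62 to 5.79, lie close together, so the values were used as deposited. The number of arrays limits the precision. The p-values rest on the spread between arrays of a group, each a separate sort and transduction per the design text. Because the MIB control arrays lie at both spike-in levels, that spread also holds any difference between the levels.

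Gene names come from GEO's platform annotation of the probe sets: 34958 had 1 symbol, 932 several and 9211 none, and the last 2 kinds were left out. All 49 probe sets of the genes studied matched RefSeq by Entrez identifier with 0 symbols changed. The number of unused columns of per-sample values is 0. Group means of 11 arrays, without INV16 replicate 4, were fitted with limma (version 3.58.1, R 4.3.3; 8 residual and 5.04 prior degrees of freedom), two-sided, with Benjamini-Hochberg adjustment over 12918 genes. Tables and figures used Python 3.11.15. The script was tested on simulated data. Alternatives were INV16 replicate 4 kept, no filter, quantile normalisation, the spike-in split as a block or within its levels, the mean of a gene's probe sets, an intensity trend, a replicate block, only the compared groups, and each array left out; leaving out MIB control 6 and 7 together was added after seeing the data.

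Values on every array are given for called genes, for those with a difference of 1 or more in size, and for 10 defining genes; of 14 other lists, called members (at most 4 per list and direction) and 6 regulators or surface genes are named. The genes and lists were chosen with earlier results of these data known.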

Additional observations from a re-analysis of the deposited data

Results flagged for a closer look

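Of 60 combinations of gene and group examined for a single array far from the rest of its group, 13 stood out by Dixon's criterion. For a single combination, chance alone passes it about 1 in 20 times. The 13 cannot be set against that rate, since genes on 1 array are not separate trials and INV16 4 was already known to stand apart. Among the MIB control arrays, replicate 7 stood out for Pf4 (12.10) and Itga2b (10.83), both as the highest array. Among the 4 INV16 arrays, the other 11 all concerned replicate 4. It was the highest for Itga2b (12.10), Gp5 (9.66), Rab27b (11.77), P2rx1 (9.38), Tbxas1 (10.00) and Fermt3 (13.48). It was the lowest for Pf4 (6.22), Ppbp (4.77), Mmrn1 (4.92), Cd9 (4.67) and F13a1 (5.88).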

How the results depend on the processing

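The number of the 26 genes called in INV16 against MIB control was 3, and became 0 with INV16 replicate 4 (0.155% of all genes called), with a replicate block (0.00774%) or with only the compared groups (0.720%), and 1 under quantile normalisation (1.67%), with the spike-in split as a block (1.15%), within its levels (0.232%) or without MIB control 6 and 7 (1.08%). Leaving out 1 array gave 0 to 4 (0.224% to 2.57% of all genes called). In ACD mutant against MIB control it was 0, and became 1 under quantile normalisation (2.55% of all genes called), 2 with a replicate block (0.186%) and 15 without MIB control 6 and 7 (9.72%). With 1 array left out it was 0 to 12 (0.0232% to 4.58% of all genes called). In INV16 against ACD mutant it was 1, and became 0 with INV16 replicate 4 (0.0387% of all genes called), without the filter (1.41%), under quantile normalisation (1.33%), with the spike-in block (0.00%) or with the mean of probe sets (1.34%). It became 13 with a replicate block (2.94%) or without MIB control 6 and 7 (6.32%), and 14 with only the compared groups (6.50%). With 1 array left out it was 0 to 12 (0.279% to 3.91%). The 12 came without MIB control 7 in both cases. Gp1bb changed sign in ACD mutant against MIB control (-0.029 with the spike-in block and within its levels) and in INV16 against ACD mutant (0.41 with that block). Of the remaining values of single genes under alternatives, 207 kept their direction and side of the threshold, 32 newly passed it and 45 no longer did. The causes were not tested. Replicate numbers were not treated as pairs, and the replicate block is given here only. Same-numbered INV16 and ACD mutant arrays deviated from their group means with correlations of -0.16, -0.18 and -0.31. MIB control 3 did so with INV16 3 at -0.33 and with ACD mutant 3 at 0.09. With few arrays per group, and INV16 1 to 3 and ACD mutant at different spike-in levels, these values cannot exclude shared preparations. Dim genes such as Alox12 are limited by background, which the values do not report.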
